A study of Mus musculus with 14 samples.

Results

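The nuclear-encoded subunits of the mitochondrial respiratory chain were examined in RNA from mouse fetuses exposed to ethanol in utero. Members were all probes of the deposited table whose single gene symbol began with Ndufa, Ndufb, Ndufc, Ndufs or Ndufv and a digit, with Uqcr, with Cox and a digit from 4 to 8, or with Atp5, or was Sdha, Sdhb, Sdhc, Sdhd or Cyc1. This rule used symbols and no measured value. It found 79 probes of 78 genes among 21582 probes, with 32 probes for complex I, 4 for complex II, 9 for complex III, 16 for complex IV and 18 for complex V. Between the alcohol-fed and pair-fed groups 0 of 73 tested members passed the test, as did 0% of all probes. Against the control pool 15 alcohol-fed members (20.5%, against 23.5% of all probes) and 12 pair-fed members (16.4%, against 21.3%) passed. The lower ones in both groups included the cytochrome c oxidase subunits Cox7a2 and Cox6a2 and a pseudogene of the complex I subunit Ndufs5.

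The respiratory chain of the inner mitochondrial membrane passes electrons from NADH and succinate to oxygen. Complex I (NADH dehydrogenase) and complex II (succinate dehydrogenase, also an enzyme of the citric acid cycle) reduce ubiquinone, complex III (the cytochrome bc1 complex) passes the electrons to cytochrome c, and complex IV (cytochrome c oxidase) reduces oxygen. The proton gradient that complexes I, III and IV build drives complex V, the ATP synthase. Several subunits of complex IV exist as isoforms of separate genes, of which 1 is made in most tissues and another mainly in heart and skeletal muscle.

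Each of the 14 two-colour arrays carried RNA of 1 C57Bl6 sample in Cy5 beside a common pool in Cy3. The alcohol-fed group (n = 7) came from pregnant mice that ate ad libitum until gestational day 14 and then, over gestational days 15 to 18, had ethanol exposure of about 180 to 200 mg/dl. The titles give 5 days of exposure and the protocol 4 days. Mothers of the pair-fed group (n = 7) received maltose dextrin over the same gestational days, named maltose dextrose in other labels, and the fetuses were delivered by caesarean section on gestational day 19. The pool held total RNA of 7 animals kept on food and water ad libitum throughout, labelled a weight matched control. It was the sole control and both groups were set against it, so the comparisons with the pool share it and leave out its own spread. Labels name no tissue. Nor do they say whether samples were taken from different litters. The p-values therefore measure only how far these samples spread, and that spread may be technical.

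Values are log2 ratios, read as sample over pool from the order of the channels. That direction is likely and not stated, there was no dye swap, and if it were turned every higher and lower below would be exchanged. Exact 0 and the top value of the table recurred on every array and were taken as placeholders for missing values, at 2.57% to 14.6% of probes per array and 1 to 8 of the 79 members per array. Testing required a value on 4 or more arrays in both groups, which held for 73 members (29 in complex I, 4 in II, 8 in III, 16 in IV and 16 in V). The 6 untested members were Ndufa2, Ndufb5, Ndufs4, Uqcrb, Atp5b and Atp5k, the last with 1 value in the pair-fed group. Among the tested members 61 (83.6%) had values on all 14 arrays, against 70.3% of all tested probes. The 12 incomplete ones fell mainly in complex IV (6 probes), with 2 each in complexes III and V and 1 each in I and II. Probes of pseudogenes (Ndufs5-ps and Atp5k-ps1) met the rule, and their signal cannot be told apart from that of the parent transcript. Ndufa4 is grouped here with complex I after its symbol, although it is known as a subunit of complex IV.

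To show the regulatory sequence in front of these genes, RefSeq windows around gene starts (GRCm38.p6) were searched on both strands for letters of factors known for respiratory genes. These were GCATGCG for the core of the NRF1 site, CCGGAAG for the core bound by ETS factors such as GABP, and AAGATGGC for the core of the YY1 site. Windows were held for 61 of the 78 member genes. The NRF1 letters were in 10 of them (16.4%, against 5.97% of 11200 genes with a tested probe and 4.01% of all 27025 genes). Unlike those 11200, the member genes searched include untested ones. The ETS letters were in 15 (24.6%, against 15.0% and 9.93%) and the YY1 letters in 10 (16.4%, against 4.23% and 3.19%). Of the 10 member genes with YY1 letters 7 belonged to complex I and 3 to complex V. Stretches before the start follow for 2 members that passed a test against the pool (Sdhb and Ndufs3), for the isoform Cox6a1, which has both NRF1 and ETS letters, and for Atp5j, where YY1 and ETS letters lie close together. Each is written 5′ to 3′ on the gene's strand, with the matched letters in capitals on either strand.
Sdhb, chr4:140961187-140961253, plus strand, NRF1 letters: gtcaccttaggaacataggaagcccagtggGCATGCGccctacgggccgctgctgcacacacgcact
Ndufs3, chr2:90904722-90904778, minus strand, ETS letters: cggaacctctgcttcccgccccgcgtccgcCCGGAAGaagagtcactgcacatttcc
Cox6a1, chr5:115349082-115349148, minus strand, NRF1 letters on both strands: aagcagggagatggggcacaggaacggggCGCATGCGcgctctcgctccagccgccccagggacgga
Cox6a1, chr5:115348959-115349004, minus strand, ETS letters on the other strand: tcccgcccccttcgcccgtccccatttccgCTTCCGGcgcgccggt
Atp5j, chr16:84835027-84835094, minus strand, YY1 letters and then ETS letters: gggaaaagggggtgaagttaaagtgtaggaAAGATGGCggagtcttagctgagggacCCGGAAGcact

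Ethanol exposure was first set against pair feeding, a comparison in which the pool cancels. With limma, 0 of 73 members passed at an adjusted p under 0.05, as did 0% of 20876 probes. At an unadjusted p under 0.05 there was 1 member (1.37%), against 881 probes (4.22%) in all. The median difference (alcohol-fed minus pair-fed) was -0.07 over the members and 0.014 over all probes. The alcohol-fed and pair-fed arrays overlapped in all 73 members. Overlap was not counted over all probes, so whether this sets the members apart is unknown.

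The member with the smallest p was Ndufb2, an accessory subunit of the membrane arm of complex I. Its log2 ratios ran from -1.92 through a median of -0.87 to -0.015 in the alcohol-fed arrays and from -0.88 through 0.35 to 1.07 in the pair-fed arrays. All 7 alcohol-fed arrays and 3 of 7 pair-fed arrays were below 0, and the groups overlapped. The difference was -1.09 ± 0.42 (SE), with a 95% interval from -1.98 to -0.20, an unadjusted p of 0.0189 and a limma adjusted p of 1.00.

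Of the 9 members next in order of p, 6 had a negative and 3 a positive difference, none past the threshold. Atp5g1, a gene for the proton-carrying ring subunit c of ATP synthase, differed by -1.19 ± 0.57. Ndufs3, a core subunit of the part of complex I that reduces ubiquinone, differed by -0.86 ± 0.43. Atp5a1, the alpha subunit of the catalytic head of ATP synthase, differed by -2.68 ± 1.32 on 4 arrays of each group. Positive differences were those of the ATP synthase genes Atp5mpl (1.22 ± 0.62, a small membrane proteolipid) and Atp5o (1.00 ± 0.52, the stalk subunit known as OSCP) and of the complex I accessory subunit Ndufa12 (0.90 ± 0.49). Cox4i1 (-1.67 ± 0.97), Ndufc1 (-0.77 ± 0.46) and Cox7a2l (-1.56 ± 1.12) completed the 10.

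The arrays bounded these differences loosely. The 95% interval lay within a 2-fold change in either direction for 7 of 73 members (9.59%, against 8.84% of all probes) and within a 4-fold change for 63 (86.3%, against 76.8%). Ndufv2, a subunit of the NADH-oxidising part of complex I, had a difference of 0.0046 with an interval from -0.73 to 0.74. For Uqcrh, the hinge subunit of complex III, the difference was -0.079, from -0.91 to 0.75. Atp5e, the epsilon subunit of ATP synthase, had a difference of 0.074, from -0.84 to 0.99.

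**Figure D1:**
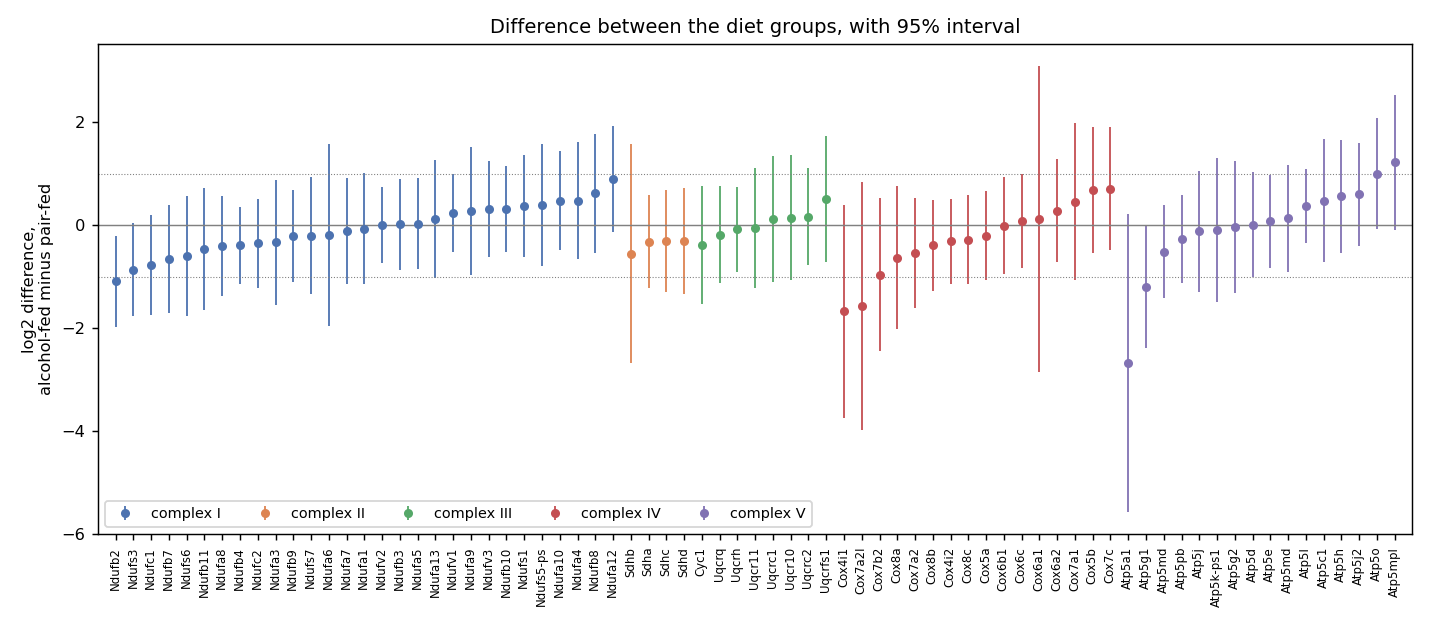
Each tested member's alcohol-fed minus pair-fed difference on the log2 scale, with its 95% interval, grouped by complex. Differences lie between -2.68 (Atp5a1) and 1.22 (Atp5mpl), and 0 of 73 members passed the test.

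Each group was then set against the ad libitum pool. In the alcohol-fed group 15 of 73 members passed (20.5%, against 23.5% of all probes), 3 higher (4.11%, against 8.02%) and 12 lower (16.4%, against 15.5%). In the pair-fed group 12 passed (16.4%, against 21.3%), 5 higher (6.85%, against 7.86%) and 7 lower (9.59%, against 13.5%). These shares lay near those of all probes, or below them. Without centring the arrays, 13 alcohol-fed members passed (3 higher, 10 lower), beside 4406 of 20876 probes in all. In the pair-fed group 8 members were then higher and 4 lower, beside 3908 probes called in all. The median ratio of the members was 0.091 and 0.088, beside 0.0067 and -0.031 over all probes. Calls changed when single arrays were left out, over all probes as well as among the members. Without alcohol-fed array 4, 8 alcohol-fed members remained, while calls over all probes went from 4913 of 20876 to 3590 of 20720. Without pair-fed array 5, 5 pair-fed members remained, while calls over all probes went from 4450 of 20876 to 3256 of 20629.

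Probes with missing values had lower ratios than complete ones. Among the 61 complete members, 3 were higher and 7 lower in the alcohol-fed group, and 5 higher and 4 lower in the pair-fed group. Complete probes of the whole table were called lower in 10.7% and 10.6% of cases and higher in 10.7% and 10.6%. Among the 12 incomplete members, 5 and 3 were lower and 0 were higher, while incomplete probes of the table were lower in 26.9% and 20.2% of cases and higher in 1.63% and 1.35%. The median ratios of the complete members were 0.29 and 0.30, and those of the incomplete members -1.45 and -1.25. Whether missing values take part in the low ratios was not tested.

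**Figure D2:**
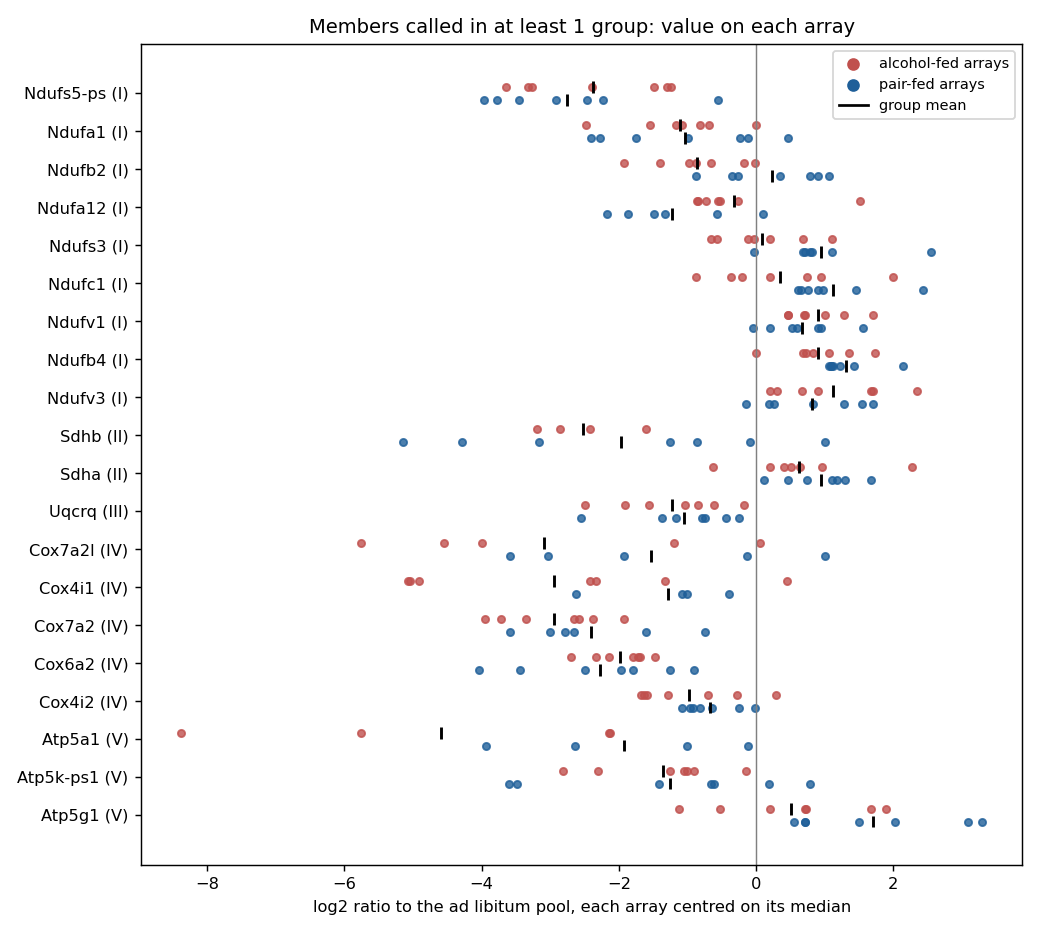
Log2 ratio to the pool on each array, in alcohol-fed and pair-fed samples, for the members that passed the test in at least 1 group. Cox7a2, Cox6a2 and Ndufs5-ps lie below 0 on every array that has a value, and Ndufb4 lies above 0 on every array.

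Complex I had calls in both directions. In each group 6 of its 29 tested probes passed (20.7%, against 23.5% of all probes in the alcohol-fed and 21.3% in the pair-fed group). Of these, 3 were higher (10.3%, against 8.02% and 7.86%) and 3 lower (10.3%, against 15.5% and 13.5%). The median ratio of complex I was 0.15 in the alcohol-fed and 0.34 in the pair-fed group. In the alcohol-fed group Ndufv1 and Ndufv3 of the NADH-oxidising part were among the higher members, while Ndufv2 of the same part passed in neither group (0.48 ± 0.25 in each, limma adjusted p = 0.16 and 0.173).

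Ndufv1 binds the flavin that takes electrons from NADH. Its ratios ran from 0.46 through a median of 0.71 to 1.70 in the alcohol-fed arrays and from -0.047 through 0.59 to 1.56 in the pair-fed arrays. All alcohol-fed and 6 of 7 pair-fed arrays were above 0, and the groups overlapped. The mean ratio was 0.90 ± 0.26 (SE; 1.87-fold higher, limma adjusted p = 0.0176) and 0.67 ± 0.26 (adjusted p = 0.0695). Ndufv3, an accessory subunit beside Ndufv1, ran from 0.21 through 0.90 to 2.35 and from -0.15 through 0.83 to 1.70. It too was above 0 on all alcohol-fed arrays and on 6 of 7 pair-fed arrays. Its mean was 1.12 ± 0.31 (2.17-fold higher, limma adjusted p = 0.0168) and 0.81 ± 0.31 (adjusted p = 0.0733). Both alcohol-fed calls ended when the 2 arrays of each group with most placeholders were left out (adjusted p = 0.0616 for Ndufv1 and 0.123 for Ndufv3). That of Ndufv3 also ended without alcohol-fed array 1 (0.913, adjusted p = 0.056), and that of Ndufv1 without array 2 of both groups and alcohol-fed array 3 (adjusted p = 0.0758).

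Ndufb4, an accessory subunit of the membrane arm, was above 0 on all 14 arrays. Ratios ran from 0.006 through 0.83 to 1.74 in the alcohol-fed and from 1.06 through 1.12 to 2.14 in the pair-fed group. The pair-fed arrays lay in the upper part of the alcohol-fed range or above it. Means were 0.91 ± 0.25 (1.89-fold higher, limma adjusted p = 0.0154) and 1.31 ± 0.25 (2.47-fold higher, adjusted p = 0.00152). The pair-fed call held in all 25 alternatives, and the alcohol-fed call ended in 2 of 25, with an adjusted p of up to 0.112.

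Ndufs3 and Ndufc1, the latter a small accessory subunit, passed in the pair-fed group. Ndufs3 ran from -0.65 through -0.026 to 1.11 in the alcohol-fed and from -0.036 through 0.78 to 2.55 in the pair-fed arrays, where 6 of 7 were above 0. Means were 0.091 ± 0.30 and 0.95 ± 0.30 (1.93-fold higher, limma adjusted p = 0.0336). Ndufc1 ran from -0.88 through 0.21 to 1.99 and from 0.61 through 0.91 to 2.44, with means of 0.35 ± 0.33 and 1.12 ± 0.33 (2.17-fold higher, limma adjusted p = 0.0221). All 7 pair-fed arrays of Ndufc1 were above 0, and both members overlapped between the groups. The pair-fed call of Ndufc1 ended without pair-fed array 5 (0.896, adjusted p = 0.0779), and that of Ndufs3 without pair-fed array 4 (0.99, adjusted p = 0.0531), 5 (0.974, 0.0581), 6 (0.679, 0.0961) or 7 (0.92, 0.064). Without the 2 arrays of each group with most placeholders Ndufs3 stood at 0.593.

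Among the lower members of complex I the probe of Ndufs5-ps, a pseudogene of an accessory subunit, was furthest from 0. It ran from -3.65 through -2.39 to -1.24 and from -3.96 through -2.91 to -0.56, below 0 on all 14 arrays. Means were -2.38 ± 0.40 (5.20-fold lower, limma adjusted p = 4.19e-04) and -2.76 ± 0.40 (6.79-fold lower, adjusted p = 9.97e-05), and both calls held in all 25 alternatives.

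Ndufa1, a membrane-arm subunit needed for the assembly of complex I, ran from -2.48 through -1.08 to 0.0025 and from -2.40 through -0.99 to 0.46. It was below 0 on 6 of 7 arrays of each group. Means were -1.11 ± 0.36 (2.16-fold lower, limma adjusted p = 0.0344) and -1.04 ± 0.36 (2.06-fold lower, adjusted p = 0.0485). These calls were near the threshold. The alcohol-fed one ended in 7 of 25 alternatives, among them leaving out alcohol-fed array 1, 2, 3, 4, 5 or 7 (adjusted p of up to 0.105), and the pair-fed one in 15 of 25 (up to 0.143, without pair-fed array 5).

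Ndufb2, described above, had a mean of -0.86 ± 0.30 in the alcohol-fed group (1.82-fold lower, limma adjusted p = 0.0449) and 0.23 ± 0.30 in the pair-fed group (adjusted p = 0.61). The call ended in 9 of 25 alternatives, among them leaving out alcohol-fed array 1, 2, 4, 5 or 6 or pair-fed array 3, with an adjusted p of up to 0.13. Ndufa12 passed in the pair-fed group, where its 6 measured arrays ran from -2.18 to 0.10 with a median of -1.41. Its alcohol-fed arrays ran from -0.86 through -0.55 to 1.52, with array 3 alone above 0. Means were -0.32 ± 0.33 and -1.22 ± 0.36 (2.33-fold lower, limma adjusted p = 0.0238). That call ended in 7 of 24 alternatives, among them leaving out pair-fed array 2, 4, 5 or 7 (adjusted p of up to 0.0744). The other 20 tested probes of complex I passed in neither group, with means from -1.13 (Ndufa6) to 1.03 (Ndufb8) in the alcohol-fed group and from -0.93 (Ndufa6) to 1.00 (Ndufs6) in the pair-fed group.

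Among the 4 probes of complex II, 1 was lower in the alcohol-fed group, and 1 was higher and 1 lower in the pair-fed group. Sdha, the flavoprotein that oxidises succinate, ran from -0.63 through 0.51 to 2.27 in the alcohol-fed and from 0.12 through 1.11 to 1.68 in the pair-fed arrays. All 7 pair-fed arrays were above 0. Means were 0.62 ± 0.30 (limma adjusted p = 0.14) and 0.94 ± 0.30 (1.92-fold higher, adjusted p = 0.0353). The pair-fed call of Sdha ended in 8 of 25 alternatives, among them leaving out pair-fed array 2, 4, 5, 6 or 7 (adjusted p of up to 0.0989).

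Sdhb, the iron-sulfur subunit that hands the electrons on, was low. Its 4 measured alcohol-fed arrays stood at -2.42, -2.86, -3.19 and -1.61. In the pair-fed group it ran from -5.15 through -1.25 to 1.01, with array 7 alone above 0. Means were -2.52 ± 0.80 (5.74-fold lower, limma adjusted p = 0.0336) and -1.97 ± 0.60 (3.92-fold lower, adjusted p = 0.0313). The alcohol-fed call of Sdhb ended with placeholders kept as values (-1.43, adjusted p = 0.105), and the pair-fed call without pair-fed array 1 (-1.44, 0.089), 3 (-1.58, 0.0828) or 5 (-1.77, 0.0822). The membrane anchors Sdhc (-0.54 and -0.23) and Sdhd (0.42 and 0.73) passed in neither group. The median of the 4 probes was -0.06 and 0.25.

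In complex III 1 of 8 tested probes passed in each group (12.5%, against 23.5% and 21.3% of all probes). In both groups this was Uqcrq, a small subunit next to cytochrome b. It ran from -2.49 through -1.03 to -0.17 and from -2.55 through -0.79 to -0.25, below 0 on all 14 arrays. Means were -1.23 ± 0.32 (2.35-fold lower, limma adjusted p = 0.0108) and -1.05 ± 0.32 (2.07-fold lower, adjusted p = 0.0266). The alcohol-fed call held in all 25 alternatives. The pair-fed call ended with uncentred values (adjusted p = 0.0739) and without pair-fed array 3 (-0.797, 0.0801), 4 (-0.992, 0.0639) or 5 (-1.03, 0.0577).

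The other 7 tested probes of complex III ran from -0.61 (Uqcrfs1, the Rieske iron-sulfur protein) to 0.50 (Cyc1, cytochrome c1) in the alcohol-fed group. In the pair-fed group the same genes marked the ends, at -1.11 and 0.88. The medians of complex III were -0.33 and -0.49, with 2 of 8 members above 0 in each group.

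The calls of complex IV were all lower. In the alcohol-fed group 5 of its 16 probes were lower (31.2%, against 15.5% of all probes) and in the pair-fed group 2 (12.5%, against 13.5%), with 0 higher in either. Incomplete probes made up 6 of the 16, a class called lower in 26.9% and 20.2% of the whole table, and 3 of the 5 alcohol-fed calls (Cox4i1, Cox7a2 and Cox7a2l) were of such probes. Its median ratio was -0.40 and -0.36. Of its 16 probes 10 lay below 0 in each group.

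Cox7a2, the isoform of subunit 7a made in most tissues, ran from -3.95 through -2.65 to -1.92 in the alcohol-fed arrays. On its 6 measured pair-fed arrays it ran from -3.58 to -0.75 with a median of -2.73. It was below 0 on every array with a value. Means were -2.94 ± 0.34 (7.66-fold lower, limma adjusted p = 1.08e-05) and -2.40 ± 0.37 (5.28-fold lower, adjusted p = 2.42e-04), and both calls held in all 24 alternatives.

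Cox6a2, the heart and skeletal muscle isoform of subunit 6a, ran from -2.70 through -1.79 to -1.48 and from -4.04 through -1.97 to -0.90. All 14 arrays were below 0 and the groups overlapped. Means were -1.98 ± 0.34 (3.95-fold lower, limma adjusted p = 4.59e-04) and -2.27 ± 0.34 (4.82-fold lower, adjusted p = 1.29e-04). Both calls of Cox6a2 held in all 25 alternatives.

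Cox4i1, the widely made isoform of subunit 4, ran from -5.07 through -2.42 to 0.45 in the alcohol-fed group, with array 7 alone above 0. Its 4 measured pair-fed arrays stood at -2.62, -1.01, -0.40 and -1.08. The mean was -2.95 ± 0.58 (7.72-fold lower, limma adjusted p = 0.0026) and -1.28 ± 0.77 (adjusted p = 0.249). The alcohol-fed call of Cox4i1 held in all 19 alternatives in which it was tested.

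Cox4i2, the subunit 4 isoform known from lung and low oxygen, ran from -1.68 through -1.29 to 0.29 and from -1.08 through -0.82 to -0.015. It was below 0 on 6 of 7 and 7 of 7 arrays. Means were -0.98 ± 0.28 (1.98-fold lower, limma adjusted p = 0.0178) and -0.67 ± 0.28 (adjusted p = 0.0928). The call ended in 5 of 25 alternatives, among them uncentred values (adjusted p = 0.0666) and leaving out alcohol-fed array 1, 4 or 7 (up to 0.0545).

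Cox7a2l, a relative of subunit 7a that links complexes III and IV, was measured on 5 arrays of each group. The alcohol-fed values were 0.051, -4.00, -5.76, -4.55 and -1.20, and the pair-fed values 1.01, -3.59, -3.03, -1.92 and -0.13. In each group 4 of 5 arrays were below 0. Means were -3.09 ± 0.79 (8.53-fold lower, limma adjusted p = 0.0138) and -1.53 ± 0.79 (adjusted p = 0.182). The call ended in 3 of 22 alternatives, among them leaving out alcohol-fed array 3 (-2.42, adjusted p = 0.0575) or 4 (-2.73, 0.0519). The other 11 probes of complex IV passed in neither group and included Cox5a, with the highest mean of the complex over both groups (0.56 ± 0.29 and 0.76 ± 0.29).

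**Figure D3:**
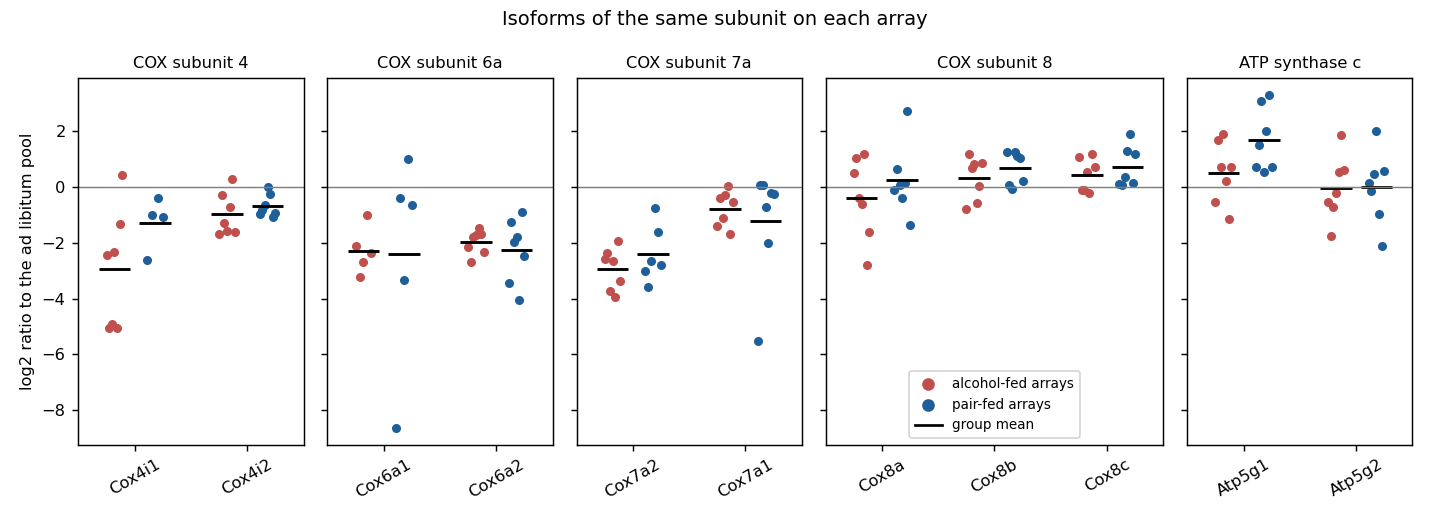
Log2 ratio to the pool on each array for isoform sets of complexes IV and V, in alcohol-fed and pair-fed samples. Cox6a2 lies below 0 on all 14 arrays, whereas Cox6a1 has values on 5 arrays of each group, from -8.64 to 1.01.

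Beside the called isoforms stood others of the same subunits that did not pass. For subunit 6a, the widely made Cox6a1 stood at -2.13, -3.23, -2.68, -1.0 and -2.38 on 5 alcohol-fed arrays. Its 5 pair-fed values were -8.64, -0.40, -3.34, 1.01 and -0.65. Its means, -2.28 ± 0.98 and -2.40 ± 0.98, lay near those of Cox6a2 with a larger error, and did not pass (limma adjusted p = 0.103 and 0.0942). The mean of Cox6a1 passed in limma with array weights (adjusted p = 0.0463 and 0.0316), in the alcohol-fed group without pair-fed array 1 (adjusted p = 0.00887), and in the pair-fed group without pair-fed array 6 (adjusted p = 0.0363).

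For subunit 7a the muscle isoform Cox7a1 had means of -0.77 ± 0.51 and -1.23 ± 0.51 and did not pass (limma adjusted p = 0.276 and 0.0923). Its pair-fed arrays ran from -5.54 through -0.25 to 0.072, and its pair-fed mean passed in limma with array weights (-1.61, adjusted p = 0.0477). In subunit 8 the widely made Cox8a (-0.38 ± 0.47 and 0.25 ± 0.47), the muscle and brown fat isoform Cox8b (0.32 ± 0.29 and 0.70 ± 0.29) and the testis isoform Cox8c (0.44 ± 0.29 and 0.72 ± 0.29) did not pass. The pair-fed mean of Cox8c passed in limma with uncentred values (0.832, adjusted p = 0.0431). Cox6b1 stood at 0.29 ± 0.32 and 0.30 ± 0.32, and Ndufa4 at 0.42 ± 0.38 and -0.058 ± 0.38. Cox6b2, Ndufa4l2 and Atp5g3 were not analysed here.

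Complex V had 3 members that passed in a group, out of 16 tested probes. In the alcohol-fed group 2 passed (12.5%, against 23.5% of all probes) and in the pair-fed group 1 (6.25%, against 21.3%). Atp5g1 ran from -1.13 through 0.72 to 1.89 in the alcohol-fed and from 0.55 through 1.5 to 3.30 in the pair-fed arrays, all 7 of the latter above 0. Means were 0.51 ± 0.40 (limma adjusted p = 0.365) and 1.70 ± 0.40 (3.25-fold higher, adjusted p = 0.00694), and the pair-fed call held in all 25 alternatives. Atp5g2, another gene for subunit c, stood at -0.034 ± 0.43 and -0.0012 ± 0.43, with a sign that turned under several alternatives.

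Atp5a1 was measured on 4 arrays of each group. The alcohol-fed values were -8.38, -2.13, -5.76 and -2.15, and the pair-fed values -1.0, -0.11, -3.93 and -2.64. All 8 were below 0. Means were -4.60 ± 0.94 (24.3-fold lower, limma adjusted p = 0.00504) and -1.92 ± 0.94 (adjusted p = 0.162). The call held in the 14 alternatives in which it could be tested, none of which left out a measured array, and the mean of Atp5a1 was -2.75 with placeholders kept as values.

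The probe of Atp5k-ps1, a pseudogene of the small membrane subunit e, ran from -2.82 through -1.05 to -0.15 and from -3.60 through -0.65 to 0.78. It was below 0 on 7 and 5 of 7 arrays. Means were -1.36 ± 0.47 (2.56-fold lower, limma adjusted p = 0.0447) and -1.26 ± 0.47 (adjusted p = 0.0637). The call ended in 10 of 25 alternatives, among them leaving out alcohol-fed array 1, 2, 3, 4, 5 or 7 or pair-fed array 1 or 5 (adjusted p of up to 0.126). The other 13 tested probes of complex V passed in neither group. Their means ran from -0.31 (a probe of Atp5md) to 1.03 (Atp5c1, the rotating gamma subunit) and from -0.90 (Atp5mpl) to 0.82 (Atp5pb, the b subunit of the stalk). The 2 probes of Atp5md stood at -0.099 and -0.31 in the alcohol-fed and at 0.41 and -0.45 in the pair-fed group.

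**Figure D4:**
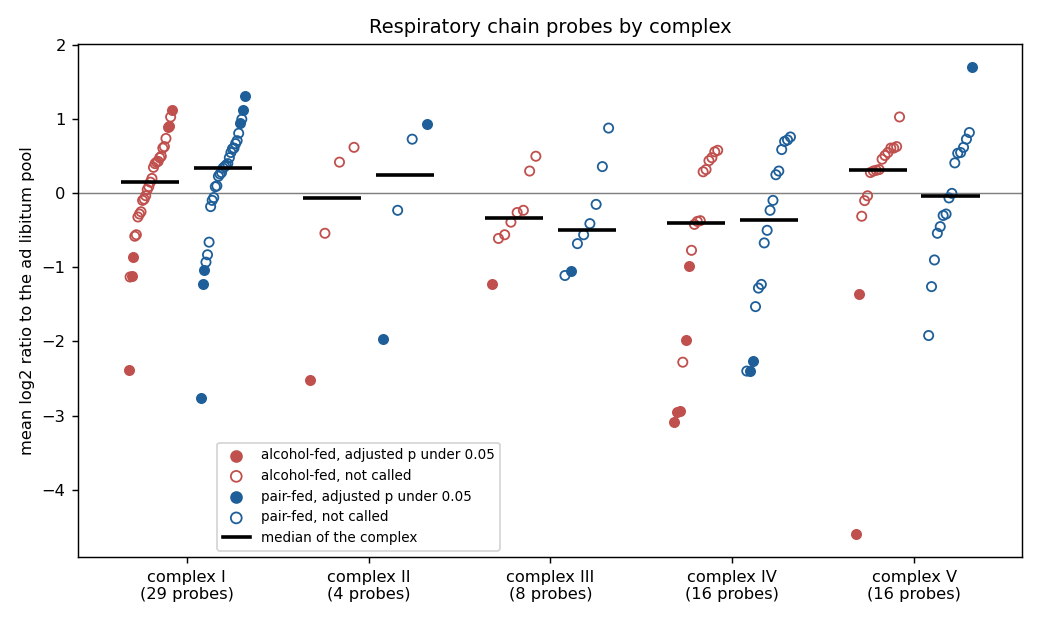
Mean log2 ratio to the pool of every tested member, by complex, in the alcohol-fed and pair-fed groups, with the median of each complex. Medians run from -0.40 (complex IV) to 0.32 (complex V) in the alcohol-fed group and from -0.49 (complex III) to 0.34 (complex I) in the pair-fed group.

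The complexes were compared by their medians and counts, with no test. In the alcohol-fed group complexes V (0.32) and I (0.15) had medians above 0, complex II lay at -0.06, and complexes III (-0.33) and IV (-0.40) lay below 0. In the pair-fed group complexes I (0.34) and II (0.25) lay above 0, complex V at -0.032, and complexes IV (-0.36) and III (-0.49) below 0. Over all tested probes complexes III and IV were lowest in both groups, which share the pool. In the pair-fed group the place of complex IV did not hold over members with values on all 14 arrays. Its median there was 0.275, above that of the complete members of complex V. The medians of the differences between the groups were -0.07, -0.31, 0.029, -0.24 and 0.044 for complexes I to V, and all 4 probes of complex II had a negative difference, from -0.55 to -0.30.

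The complex medians were also taken on each array. For complex IV they ran from -0.92 through -0.58 to -0.28 in the alcohol-fed arrays, all below 0, and from -0.52 through -0.055 to 0.066 in the pair-fed arrays. The groups overlapped on 2 pair-fed arrays, 1 at -0.52 and 6 at -0.40. For the other complexes the ranges of the groups overlapped widely: -0.21 to 0.50 and -0.26 to 0.58 for complex I, -0.76 to 0.96 and -0.14 to 0.64 for II, -0.76 to 0.16 and -0.69 to 0.56 for III, and -0.47 to 0.72 and -0.53 to 0.64 for V. Over members with values on all 14 arrays, a choice made after the data were seen, the median of complex IV, then without its 6 incomplete probes, was -0.0382 in the alcohol-fed and 0.275 in the pair-fed group.

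**Figure D5:**
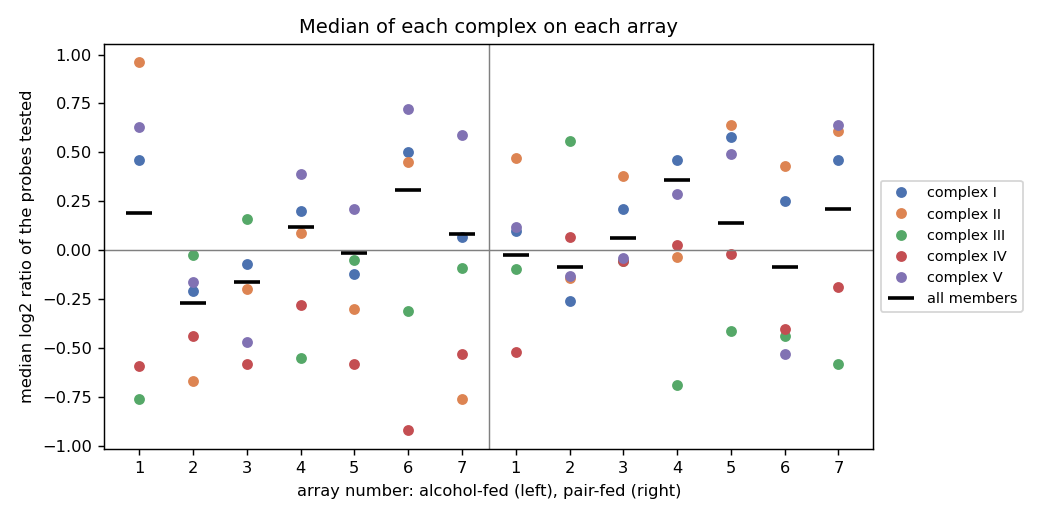
Median log2 ratio to the pool of the members of each complex, 1 point per array, in the alcohol-fed and pair-fed groups. Complex IV lies between -0.92 and -0.28 in the alcohol-fed arrays and between -0.52 and 0.066 in the pair-fed arrays, and the groups overlap in every complex.

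Genes around the chain were counted by lists, to be read against the shares of all probes called higher (8.02% alcohol-fed, 7.86% pair-fed) and lower (15.5% and 13.5%). A gene with several probes was counted by its probe with the smallest p. Of 39 tested assembly factors, which build the complexes, 3 were higher and 4 lower in the alcohol-fed group and 5 higher and 7 lower in the pair-fed group, with medians of -0.045 and 0.12. The complex IV factor Coa7 stood at -1.49 ± 0.29 (limma adjusted p = 0.00152) and the complex III factor Lyrm7 at -1.40 ± 0.30 (adjusted p = 0.00429) in the alcohol-fed group. In the pair-fed group the complex I factor Ndufaf7 stood at 2.05 ± 0.32 (limma adjusted p = 2.14e-04) and the complex II factor Sdhaf2 at 2.65 ± 0.50 (adjusted p = 0.00133). Between the groups 0 assembly factors passed, with the smallest p for Coa4 (-3.46 ± 0.94) and Cox19 (1.70 ± 0.77).

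Of 17 tested other subunits and carriers, 3 were higher and 3 lower in the alcohol-fed group, and 2 higher and 3 lower in the pair-fed group, with medians of 0.33 and 0.0061. Cycs, the cytochrome c that carries electrons from complex III to complex IV, stood at -3.17 ± 0.47 and -3.18 ± 0.47 (limma adjusted p = 1.12e-04 and 1.17e-04). Cyct, the testis cytochrome c, stood at 1.42 ± 0.29 in the alcohol-fed group (limma adjusted p = 0.00211), with its other probe at 0.31. Gpd2, which feeds electrons from glycerol phosphate into the chain, stood at -3.11 ± 0.67 in the pair-fed group (limma adjusted p = 0.00509). Etfa (-0.82 ± 0.45) and Ucp3 (0.70 ± 0.44) had the smallest p between the groups and did not pass. The 13 subunits encoded in mitochondrial DNA were not analysed here.

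Of 14 tested regulators of mitochondrial biogenesis, 1 was higher and 4 lower in the alcohol-fed group and 2 higher and 4 lower in the pair-fed group, with medians of 0.096 and -0.03. Polrmt, the RNA polymerase of mitochondria, stood at -3.51 ± 0.38 and -3.76 ± 0.38 (limma adjusted p = 3.17e-06 and 1.52e-06). Ppargc1a, the coactivator PGC-1alpha, stood at -3.57 ± 0.46 and -2.71 ± 0.46 (limma adjusted p = 2.31e-05 and 4.61e-04). The genes of 2 factors whose letters were searched above had the smallest p between the groups, Yy1 at 1.22 ± 0.53 and the GABP subunit Gabpa at -1.56 ± 0.70, and did not pass.

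Of 13 tested genes of the citric acid cycle, which makes NADH and succinate for the chain, 1 was higher and 3 lower in the alcohol-fed group and 2 higher and 2 lower in the pair-fed group. Medians were -0.87 and -0.52. Dld, the lipoamide dehydrogenase, stood at 0.94 ± 0.25 and 0.96 ± 0.25 (limma adjusted p = 0.0139 and 0.0132). The isocitrate dehydrogenase genes Idh2 in the alcohol-fed group (-2.34 ± 0.64, limma adjusted p = 0.0182) and Idh3g in the pair-fed group (-2.80 ± 0.68, adjusted p = 0.0118) were lower. Dlat (-1.43 ± 0.80), a pyruvate dehydrogenase subunit counted with this list, and Suclg2 (-1.87 ± 1.09) had the smallest p between the groups and did not pass.

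Markers of tissues rich in mitochondria, and of other tissues, were counted beside these results, since fewer cells of a type and less RNA per cell cannot be told apart in these samples. Over all probes 15.5% were lower and 8.02% higher in the alcohol-fed group, and 13.5% and 7.86% in the pair-fed group. A gene with several probes was counted by its probe with the smallest p, whereas the shares over all probes count each probe. In the alcohol-fed group 3 of 6 tested skeletal muscle genes were lower and 1 was higher. The higher gene, Ryr1, stood at 5.91, with its 6 other probes from -0.053 to 0.94. Heart genes were lower in 2 of 6 cases, brown fat genes (a list that holds the members Cox8b and Cox7a1) in 1 of 5, liver genes in 1 of 6, erythroid genes in 2 of 3 and neuron genes in 1 of 5, while 3 of 4 trophoblast genes were higher. Another probe of the same gene lay near 0 for the counted Tfrc (-2.99, other probe 0.12), Gad2 (-3.32, other 0.13) and Psg23 (1.4, other 0.082). In the pair-fed group 2 muscle, 3 heart, 2 liver, 1 erythroid and 1 neuron gene were lower. There 1 muscle and 1 trophoblast gene were higher, and 0 brown fat genes passed. Other probes of the counted genes differed here too: Tfrc stood at -2.34 (other probe -0.027) and Gad2 at -4.23 (other 0.89). The higher muscle gene Ryr1 stood at 4.6, with its 6 other probes from -0.68 to 0.77, and Psg23 at 0.92 (other 0.59). The median ratio of the heart genes on an array ran from -1.23 to 0.41 in the alcohol-fed and from -1.43 to 0.12 in the pair-fed group. Between the groups 0 marker genes passed. The part of tissue makeup in the ratios of the respiratory chain members was not tested.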

How the data were processed

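The authors deposited 1 log2 value per probe and array for 14 arrays of 21582 probes; no label states the scale, centring or direction, and the reading as log2 ratios rests on the range of the values and the presence of 2 channels. RNA was extracted with Ambion's miRNA kit and labelled with Genisphere's 3DNA kit, per the labels' protocols. The sources used here name no scanner or normalization. No signal column was used, so brightness over background is unknown, and the number of arrays limits the precision. Names came from the platform annotation (16635 probes with 1 symbol, 113 with several, 4834 with none); 78 of the 79 member probes matched RefSeq (GRCm38.p6) by gene number and symbol.

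Exact 0 and 16.61, the top value of the table, were set to missing, each array was centred on its median, and the 20876 probes measured on 4 or more arrays in both groups were fitted in limma 3.58.1 (R 4.3.3; lmFit and eBayes, two-sided, prior degrees of freedom 5.88; 706 probes left out). Benjamini-Hochberg adjustment ran over all 20876 probes, with calls at an adjusted p under 0.05. The mean of each group was tested against 0, and the groups against each other. Errors are limma standard errors, from 1 variance per probe over both groups, so leaving out an array of 1 group can change a call in the other. The fit was tested on simulated data. The members and lists were chosen with earlier results of these data known. Named with values were members called in any contrast, the 10 smallest p between the groups, the lowest and highest member of each complex over both groups, isoform sets, and the 2 list genes with the smallest p per contrast. Of the marker lists counts are given, with values for genes whose probes differed. Alternatives were other centrings and scalings, placeholders kept, other array minimums, robust and weighted fits, a replicate block, gene means and left-out arrays. The replicate numbers are not used to pair samples.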

Additional observations from a re-analysis of the deposited data

Results flagged for a closer look

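Of 64 checks for a single distant array, over 32 named probes in each group, 3 stood out. Each check used the 4 to 7 arrays of the group that had a value. Chance alone gives about 1 in 20 such checks. Ndufa12, an accessory subunit of complex I, stood at 1.52 on alcohol-fed array 3, with the nearest of the other arrays at -0.27, a gap of 0.751 of the whole range. Ndufb4, another accessory subunit, stood at 2.14 on pair-fed array 5, with the nearest at 1.43 (0.654 of the range), and its pair-fed call held without that array. Cox7a1, the muscle isoform of subunit 7a, stood at -5.54 on pair-fed array 1, with the nearest at -2.01 (0.629 of the range). Cox6a1 and Sdhb also had their lowest pair-fed values on that array, at -8.64 and -5.15. The cause was not tested.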

How the results depend on the processing

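Between the groups 0 members passed in every alternative. Against the pool 15 alcohol-fed members passed, but 8 without the 2 arrays of each group with most placeholders, 7 without array 2 of both groups and alcohol-fed array 3 (where 8 pair-fed members passed) and 8 to 15 with 1 array left out. The pair-fed count of 12 ran from 5 to 15 with 1 array left out. These fits had fewer samples, and calls over all probes changed as well. Without the 2 arrays of each group with most placeholders, alcohol-fed calls over all probes went from 4913 of 20876 to 3658 of 20120. Without array 2 of both groups and alcohol-fed array 3 they were 2816 of 20057, and pair-fed calls went from 4450 to 3189. With 1 array left out they ran from 3590 to 5297 (alcohol-fed) and from 3256 to 4891 (pair-fed). Calls held in every alternative that could test them for 6 of 15 alcohol-fed members (Atp5a1, Cox4i1, Cox6a2, Cox7a2, Ndufs5-ps and Uqcrq) and for 5 of 12 pair-fed members (Atp5g1, Cox6a2, Cox7a2, Ndufb4 and Ndufs5-ps). Replicate numbers shared by the groups did not pair the arrays: deviations of same-numbered arrays correlated at -0.0775 to 0.184, and 2 of 7 alcohol-fed arrays correlated best with their own number. With the replicate number as a block, 13 alcohol-fed, 10 pair-fed and 0 members between the groups passed. Over all probes 4231, 3978 and 0 passed with that block. Among the named members, signs turned only for means that passed nowhere. These means lay between -0.38 (Cox8a) and 0.42 (Ndufa4), both in the alcohol-fed group. For Atp5g2 in the alcohol-fed group the values were 0.0897 uncentred and 0.446 without array 2 of both groups and alcohol-fed array 3. With 1 array left out they ran from -0.348 to 0.25. For Atp5g2 in the pair-fed group they were 0.107 uncentred, 0.0124 scaled, 0.106 with array weights, 0.306 without the arrays with most placeholders, 0.0236 without array 2 of both groups and alcohol-fed array 3, and -0.336 to 0.351 with 1 array left out. Ndufa4 in the pair-fed group gave 0.0501 uncentred, 0.00594 with array weights, 0.0881 and 0.0301 in the same fits without arrays, and -0.141 to 0.0842 with 1 array left out. With 1 array left out Cox8a gave -0.642 to 0.0223 in the alcohol-fed and -0.166 to 0.516 in the pair-fed group, and Ndufa4 gave -0.0282 to 0.704 in the alcohol-fed group. Among all values of named members 1354 kept direction and side of the threshold, 88 lost a call, 6 gained one and 22 turned; 102 complex medians stayed within the spread of the arrays and 3 moved, over members on all 14 arrays, to -0.0382 and 0.275 for complex IV and 0.727 for complex II in the pair-fed group. Uncentred values shifted the median of all probes to 0.136 in the alcohol-fed and 0.0883 in the pair-fed group. The cause of these changes was not tested.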
